A study of Mus musculus with 4 samples.

Results

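The 35 genes described here encode lysosomal hydrolases, their activator proteins and a few proteins of the lysosomal membrane, and the loss of many of them causes a storage disease. They were chosen by symbol for their known function, and all 35 were found among the 56832 gene rows of the deposited count tables. Hydrolases are made in the endoplasmic reticulum, and most are tagged with mannose 6-phosphate in the Golgi and carried by receptors to the lysosome, where each removes 1 kind of bond from glycolipids, glycosaminoglycans, glycoproteins or lipids. When an enzyme is missing its substrate accumulates, and in the brain microglia are among the cells that fill with storage material. Macrophages also secrete hydrolases that neighbouring cells can take up, which is the known basis for treating some of these diseases with blood stem cell grafts.

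The libraries came from microglia of female C57BL/6 mice that had received no transplant and no other intervention, per the labels. The study used these animals, litter mates of transplanted mice, as the naive reference for graft-derived brain myeloid cells, and no graft-derived library was analysed here. Cells were sorted directly into lysis reagent through a gate on CD11b and low to intermediate CD45, and RNA was kept only above a set integrity number. The labels give 4 replicates of 1 group and neither the age of the mice nor whether each library is a separate animal, so every spread below is a spread between these libraries and may be technical. No comparison between groups was possible.

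The libraries held 20360121 to 23292655 reads assigned to genes, and no pair of libraries held identical values. The unit of level is CPM, a gene's reads per 1000000 reads that the same library assigned to genes. A gene with no read could still stand at up to 3 reads, which is 0.129 to 0.147 CPM. All 10 microglial markers were above 1 CPM in every library and together took 18739 to 32858 CPM. The neutrophil list of 8 genes summed to 276 to 2403 CPM, the border macrophage list of 8 genes to 294 to 862 CPM the oligodendrocyte list of 7 genes to 486 to 1819 CPM and the astrocyte list of 6 genes to 240.1 to 504 CPM. The lists for monocytes, B cells, T and NK cells, neurons and endothelial cells each held at least 1 gene at 0 counts in some library, and each summed to 188 CPM or less. The libraries were not alike in breadth, with 11426, 13478, 13308 and 9720 genes at 1 CPM or more in replicates 1 to 4. In a bulk sample, fewer cells of a type and less RNA per cell cannot be told apart.

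Together the 35 genes took 1.70% ± 0.155 of the reads assigned to genes (SD, n = 4). The share was 1.93% in replicate 1 (exact Clopper-Pearson 95% interval 1.92 to 1.93), 1.63% in replicate 2 (1.63 to 1.64), 1.58% in replicate 3 (1.58 to 1.59) and 1.66% in replicate 4 (1.66 to 1.67). These intervals cover counting error only, since amplified reads are not independent molecules, and the spread between libraries was far wider than they are. Psap alone supplied 28.2% ± 4.11 of the reads of the 35 genes (SD, n = 4).

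The group stood high in the transcriptome but was far from uniform. Of the 35 genes, 32 were at 1 CPM or more in every library, against 38.8% of all 21681 genes with a count, and 18 were at 100 CPM or more in every library, against 5.28% of those genes. The median over the 35 genes was 155 ± 36.7 CPM (SD, n = 4). The median over the 9075 genes that passed the filter on low counts, which keeps genes with about 10 counts or more in every library, was 32.3 ± 1.12 CPM. The highest and lowest of the 35 genes, Psap and Acp5, had means of 4784 and 1.65 CPM.

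**Figure D1:**
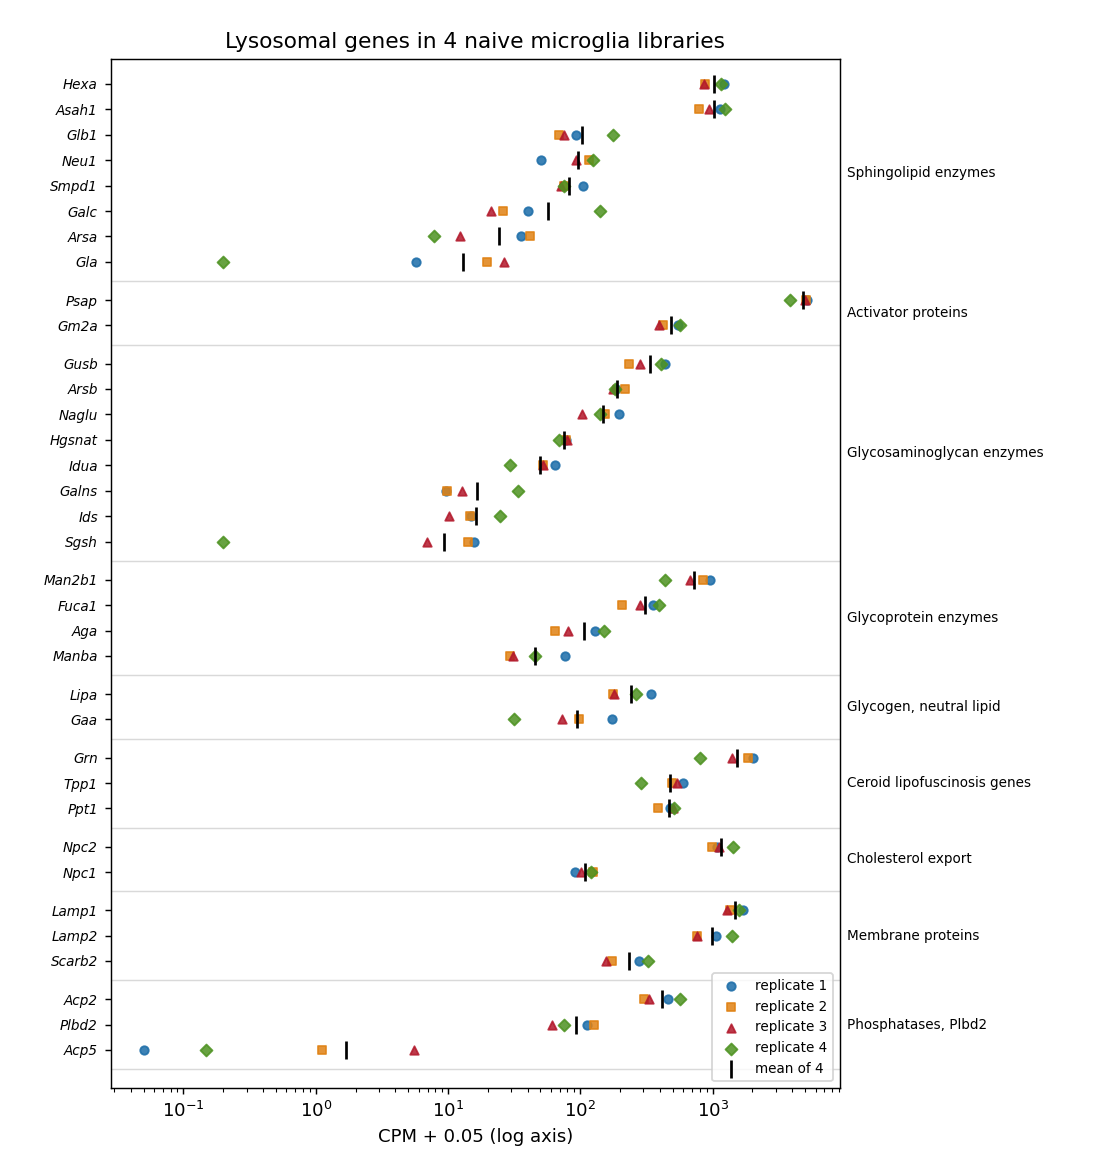
CPM of each of the 35 genes, plus 0.05 so that 0 can be drawn, on a log axis, by role; coloured symbols are the 4 libraries and black bars their means. Psap lies at the far right with 3848 to 5141 CPM, and Gla, Sgsh and Acp5 are the genes whose symbols reach the far left.

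Many lysosomal genes carry in their promoters an element that the transcription factors TFEB and TFE3 bind, built around the bases CACGTG. RefSeq promoters of the build GRCm38.p6, from 250 bases before to 50 bases after the start, were matched by symbol for 29 of the 35 genes, which have 32 promoters. That build is older than the GRCm39 build on which the reads were counted, so the positions belong to the RefSeq table only. CACGTG, which reads the same on both strands, was present in the promoters of 7 genes, in 7 of the 32 promoters, and in 7.15% of all 32851 promoters of the table. The longer TCACGTGA, which contains it, was present in Gla only among these genes and in 0.974% of all promoters. The full palindrome of 10 bases, known as the CLEAR element, was in none of the 32 promoters and in 0.326% of all. A match is a string of letters and not a shown binding site. The stretches that hold CACGTG are printed because they are a sequence feature that the choice of genes did not use. They are written 5′ to 3′ on the strand of the gene, with the match in capitals, and each ends before the transcription start.
Lamp1, chr8:13159088-13159160, plus strand: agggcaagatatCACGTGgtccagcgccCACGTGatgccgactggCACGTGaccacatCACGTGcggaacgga
Gla, chrX:134601182-134601244, minus strand: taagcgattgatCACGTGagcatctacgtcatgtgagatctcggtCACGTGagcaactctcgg
Glb1, chr9:114401018-114401047, plus strand: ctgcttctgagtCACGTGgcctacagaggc
Gaa, chr11:119267811-119267840, plus strand: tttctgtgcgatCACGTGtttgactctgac
Naglu, chr11:101070009-101070038, plus strand: caaccttcaggtCACGTGgcccgaggtcgg
Sgsh, chr11:119355522-119355551, minus strand: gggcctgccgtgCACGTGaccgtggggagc
Arsa, chr15:89477425-89477452, minus strand: tcaactcagtgtCACGTGttgtctgctc
Lamp1 held 4 copies, the last of them 15 bases upstream of the start, and Gla held 2 copies, the nearer 194 bases upstream. The other 5 promoters held 1 copy each, at 16 bases upstream in Arsa, 29 in Sgsh, 48 in Glb1, 73 in Naglu and 140 in Gaa.

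The activator proteins, which are not enzymes but present lipids to them, took the most reads of any role, with a sum of 5267 ± 579 CPM (SD, n = 4). Psap encodes prosaposin, the precursor that is cut into the saposins needed by several sphingolipid hydrolases. Psap gave 5141, 5120.3, 5026 and 3848 CPM in replicates 1 to 4. Replicates 1 to 3 lay close together and replicate 4 lay below them. Gm2a encodes the GM2 activator, which lifts ganglioside GM2 from the membrane for β-hexosaminidase, and gave 551, 421, 394 and 567 CPM. Its values were higher in replicates 1 and 4 than in the other two.

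The 8 sphingolipid enzymes summed to 2429 ± 446 CPM (SD, n = 4), and Hexa and Asah1 supplied most of it. Hexa, the alpha subunit of β-hexosaminidase and the Tay-Sachs disease gene, gave 1214, 879, 854 and 1168 CPM in replicates 1 to 4. Asah1, the acid ceramidase whose loss causes Farber disease, gave 1139, 789.7, 938 and 1232 CPM. Both were lower in replicates 2 and 3 than in 1 and 4, with no library more than 1.56 times another.

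Other enzymes of ganglioside and sphingomyelin breakdown stood about an order of magnitude lower, also per kb of exon (34.4, 25.6 and 24.4 CPM per kb for Glb1, Neu1 and Smpd1, against 515 for Hexa). Glb1, the β-galactosidase of GM1 gangliosidosis, gave 92.8, 68.4, 75.8 and 177 CPM. Neu1, the sialidase that Glb1 joins in a complex with the protective protein, gave 50.3, 115, 92.6 and 125 CPM. Smpd1, the acid sphingomyelinase of Niemann-Pick disease types A and B, gave 105, 75.1, 71.2 and 74.7 CPM. The library that stood apart differed between them: replicate 4 was high for Glb1, replicate 1 was low for Neu1 and replicate 1 was high for Smpd1.

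The enzymes of the leukodystrophies and of Fabry disease were low and uneven. Galc, the galactosylceramidase that degrades myelin galactolipid and is lost in Krabbe disease, gave 39.8, 26.0, 21.3 and 141 CPM in replicates 1 to 4. Its mean was 57.1 ± 56.8 CPM (SD, n = 4) and 29.0 CPM without replicate 4, so that library decides it. Arsa, the arylsulfatase lost in metachromatic leukodystrophy, gave 35.3, 41.3, 12.2 and 7.76 CPM, lower in replicates 3 and 4 than in the others. Gla, the α-galactosidase of Fabry disease, gave 5.63, 19.5, 26.4 and 0.147 CPM, the last from 3 reads. The Gla mean of 12.9 ± 12.1 CPM (SD, n = 4) was 8.42 CPM without replicate 3.

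The 8 glycosaminoglycan enzymes, the genes of the mucopolysaccharidoses, summed to 846 ± 121 CPM (SD, n = 4). Gusb, the β-glucuronidase of Sly syndrome, was the highest of them in CPM and per kb of exon, with 433, 235, 283 and 405 CPM in replicates 1 to 4. Arsb, the arylsulfatase of Maroteaux-Lamy syndrome, gave 185, 218, 178 and 181 CPM, a narrow range. Idua, the iduronidase of Hurler syndrome, gave 64.6, 52.6, 52.2 and 29.6 CPM. Ids, the iduronate sulfatase of Hunter syndrome, gave 14.8, 14.7, 10.1 and 24.8 CPM. Replicate 4 was thus the lowest library for Idua and the highest for Ids. Galns, the sulfatase of Morquio syndrome type A, gave 9.56, 9.79, 12.8 and 34.0 CPM, a mean of 16.5 CPM that was 10.7 CPM without replicate 4.

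Heparan sulfate is taken apart in a fixed order of steps, and defects in 3 of the enzymes named here cause forms of Sanfilippo syndrome. Naglu, which removes N-acetylglucosamine, gave 196, 153, 104 and 142 CPM in replicates 1 to 4. Hgsnat, the membrane acetyltransferase that prepares its substrate, gave 77.6, 77.9, 79.5 and 68.5 CPM, which was the narrowest spread of the 35 genes, a coefficient of variation of 6.59%. Hgsnat and Galns are given by library outside the rule for named genes. Sgsh, the sulfamidase, gave 15.8, 14.2, 6.87 and 0.147 CPM, the last from 3 reads. These enzymes of 1 pathway thus did not share a level or a spread.

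The glycoprotein enzymes summed to 1190.5 ± 229.7 CPM (SD, n = 4). Man2b1, the lysosomal α-mannosidase, gave 964, 851, 670.3 and 434 CPM in replicates 1 to 4, lowest in replicate 4. Fuca1, the fucosidase of fucosidosis, gave 356, 206, 282 and 391 CPM. Aga, which splits the bond between sugar and asparagine, gave 129, 64.8, 81.1 and 149.9 CPM. Fuca1 and Aga shared 1 order of libraries, with replicate 4 highest and replicate 2 lowest. Manba, the β-mannosidase and the lowest of the 4 also per kb of exon, gave 76.3, 29.5, 31.1 and 45.5 CPM.

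Gaa and Lipa act on storage fuels. Gaa, the acid α-glucosidase of Pompe disease that degrades glycogen, gave 174, 97.0, 72.1 and 31.5 CPM in replicates 1 to 4, a 5.5-fold range. Lipa, the acid lipase that frees cholesterol and fatty acids from lipoprotein lipids, gave 344, 177, 179 and 265 CPM. Gaa was lowest in replicate 4 and Lipa in replicate 2.

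The genes of neuronal ceroid lipofuscinosis were among the more abundant. Grn encodes progranulin, whose partial loss is known from frontotemporal dementia and whose full loss causes a ceroid lipofuscinosis. Grn gave 2007, 1867, 1396 and 806 CPM in replicates 1 to 4, with replicate 4 below the other 3. Tpp1, a serine protease that removes tripeptides, gave 595, 491, 539 and 289 CPM, also lowest in replicate 4. Ppt1, which removes palmitate from proteins, gave 479, 386, 501 and 507 CPM and did not stand low there.

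Cholesterol leaves the lysosome by way of 2 proteins lost in Niemann-Pick disease type C, the soluble carrier Npc2 and the membrane protein Npc1. Npc2 gave 1081, 998, 1125 and 1427 CPM in replicates 1 to 4, and Npc1 gave 91.9, 124, 101 and 121 CPM. Both kept within 1.43 times between libraries.

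Of the membrane proteins, Lamp1 and Lamp2 coat the inner face of the lysosomal membrane, and Lamp2 also takes part in autophagy and is lost in Danon disease. Lamp1 gave 1699, 1354, 1291 and 1584 CPM in replicates 1 to 4, and Lamp2 gave 1068, 761, 761 and 1397 CPM. Scarb2, the receptor that carries glucocerebrosidase to the lysosome, gave 280.1, 175, 157 and 324 CPM. All 3 were higher in replicates 1 and 4 than in 2 and 3.

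Of the remaining genes, Acp2 encodes the acid phosphatase that most cells carry in lysosomes and gave 461, 305, 333 and 566 CPM in replicates 1 to 4. Plbd2, a soluble protein of the phospholipase B family, gave 112, 126, 60.7 and 75.1 CPM. Acp5, the tartrate-resistant phosphatase known from osteoclasts and activated macrophages, had 0, 24, 127 and 2 reads, or 0, 1.06, 5.45 and 0.0982 CPM. Its mean of 1.65 CPM was 0.387 CPM without replicate 3. Acp5 was thus at or under 3 reads in replicates 1 and 4.

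Levels of different genes were compared per kb of exon, because longer transcripts give more reads. The union of exons in a GENCODE annotation of GRCm38 gave a length for all 35 genes. On that scale Psap stood at 1743 ± 228 CPM per kb (SD, n = 4), followed by Lamp1 at 554 ± 71.7, Hexa at 515 ± 94.5, Grn at 437 ± 156, Asah1 at 302 ± 58.7 and Npc2 at 213 ± 34.5. The lowest were Ids at 3.15 ± 1.21, Sgsh at 2.10 ± 1.63 and Acp5 at 0.814 ± 1.27 CPM per kb. In 5 of the 34 pairs of neighbours in this order the higher gene led in 4 of 4 libraries, among them Lamp1 over Hexa and Aga over Scarb2. Outside these 5 pairs the order changed between libraries, so most of the fine order is not resolved. Of the 34 pairs, 31 differed by less than the larger of their 2 standard deviations. The exceptions were Psap over Lamp1, Asah1 over Npc2 and Npc2 over Ppt1, each in that order in 4 of 4 libraries per kb. That measure ignores that both genes were read in the same libraries. Lamp1 over Hexa and Aga over Scarb2 fell under it although their order held. The orders of Asah1 over Npc2 and of Aga over Scarb2 rest on the lengths. In CPM the mean was 1158 for Npc2 against 1025 for Asah1, and 234 for Scarb2 against 106 for Aga.

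Partners in 1 reaction, complex or pathway were set against each other within each library, in 14 pairs. The measure was log2 of the first gene's reads per kb over the second's, with 0.5 added to each count. In 13 pairs the same gene was higher in 4 of 4 libraries, the first gene in 9 and the second in 4. Without the length correction 12 pairs kept 1 order in 4 of 4 libraries, and Ppt1 over Tpp1 no longer did. For each of the 13, a two-sided exact permutation test that flips signs over libraries gave p = 0.13, and 0.13 after Benjamini-Hochberg adjustment over the 14 pairs. That is the smallest p that 4 libraries allow, so 0.05 is out of reach.

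The most constant of the 14 ratios was that of Hexa to its activator Gm2a. It was 2.19, 2.11, 2.16 and 2.09 in replicates 1 to 4 on the log2 scale, a mean of 2.14 ± 0.05 (SD, n = 4). Without the length correction the ratio was 1.09, so its size rests on the lengths, which by construction leave the spread unchanged. Both genes were higher in replicates 1 and 4 than in 2 and 3, as were Lamp1, Lamp2, Scarb2 and Acp2. Ratios between other genes with that pattern were not examined. The ratio of Asah1 to Smpd1, enzymes that act one after the other from sphingomyelin to sphingosine, was 3.63 ± 0.30. The ratio of Npc2 to Npc1 was 4.46 ± 0.26 per kb and 3.40 without the length correction. The standard deviations of these 3 pairs, and that of Lamp1 over Lamp2 at 0.29, were the smallest of the 14 pairs on the log2 scale.

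Arsa and Galc, which rely on saposins, were far below Psap. They were also low within the list, at 6.57 and 3.84 CPM per kb. Asah1, another sphingolipid enzyme, stood at 302 CPM per kb, against 1743 for Psap. The log2 ratio of Arsa, whose substrate saposin B presents, to Psap was -7.61, -7.38, -9.10 and -9.37 in replicates 1 to 4. The log2 ratio of Galc, which needs saposin A, to Psap was -9.45, -10.06, -10.32 and -7.20. Its mean of -9.26 was -7.56 with the longest transcript as length and -6.82 with no length correction, because the union of Galc exons, 14879 bases, is long. It was -9.94 without replicate 4, the library in which Galc was high. The log2 ratio of Grn to Psap, whose proteins bind each other, was -2.07 ± 0.41 (SD, n = 4).

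In other pairs 1 partner led clearly. Man2b1 exceeded Manba by 3.84 ± 0.72 on the log2 scale (SD, n = 4), and Arsb exceeded Arsa by 2.58 ± 1.08, or by 3.30 without the length correction. Ids was below Idua, with log2 ratios of -2.40, -2.12, -2.65 and -0.54 in replicates 1 to 4. Lamp1 exceeded Lamp2 by 2.45 ± 0.29 per kb, but by 1.30 with the longest transcript and 0.61 without a length correction, so the size of that lead is not settled. Ppt1 over Tpp1 was 0.50 ± 0.54, less than its spread, and 0.01 without the length correction, where Tpp1 was the higher gene in 3 of 4 libraries. Glb1 over Neu1 was the mixed pair, at 1.19, -0.44, 0.02 and 0.82 in replicates 1 to 4, with p = 0.38 in the same exact permutation test.

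Sgsh and Acp5 were too low in some libraries for a mean ratio. Naglu exceeded Sgsh 20.6-fold, 17.9-fold and 25.1-fold per kb in replicates 1 to 3. In replicate 4, with 3 reads of Sgsh, the ratio was 1595 with an exact Poisson 95% interval of 546 to 7736. Acp2 exceeded Acp5 112-fold in replicate 2 and 23.9-fold in replicate 3. In replicate 4, with 2 reads of Acp5, the ratio was 2254 with an exact Poisson 95% interval of 624 to 18614. In replicate 1, where Acp5 had 0 reads, Acp2 was 1240.2-fold higher than the floor of 3 counts in that library. The lower limit of the exact Poisson 95% interval there was 1009.

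**Figure D2:**
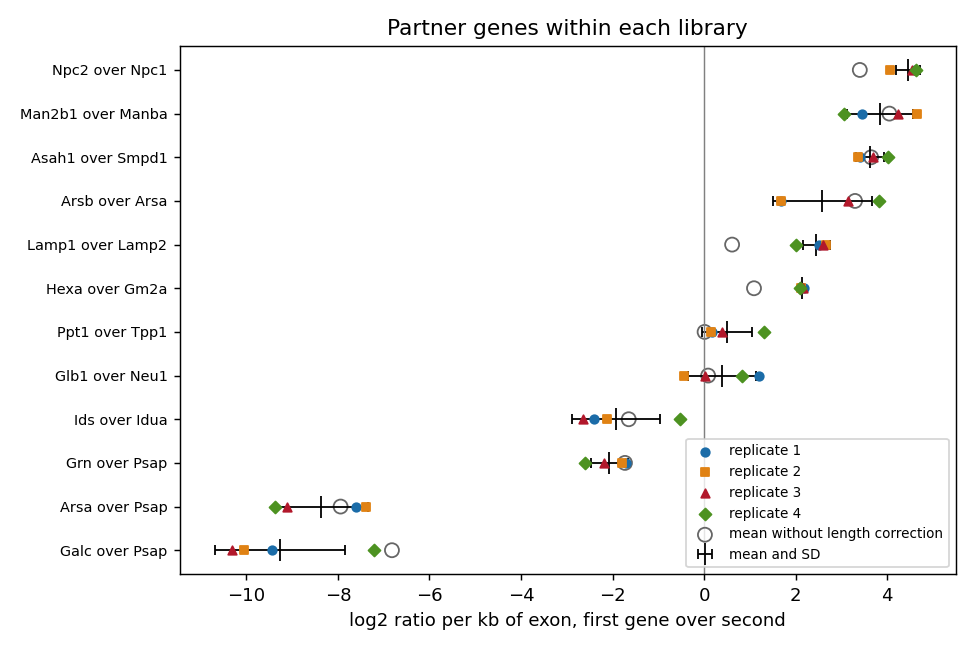
Log2 ratio per kb of exon of the first gene over the second in each of the 12 pairs without a gene at 3 reads or fewer; coloured symbols are the 4 libraries, bars the mean and SD, open circles the mean without length correction. The symbols of Hexa over Gm2a coincide near 2.14, while those of Glb1 over Neu1 lie on both sides of 0.

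The spread of each gene between libraries was tested across the whole table. edgeR's quasi-likelihood fit with 1 common mean gave each gene a dispersion, which was set against the trend of genes at the same level by an upper-tail F test. Of the 35 genes, 32 passed the filter on low counts. The 3 that did not, Gla, Sgsh and Acp5, were those at 3 reads or fewer in some library. No member was called at an adjusted p under 0.05 in edgeR's test, and the share of all 9075 genes called was 0%. With 4 libraries that test could hardly call any gene. Its lowest adjusted p over all genes was 0.94, a value that Adamts1 at 30.4 times the trend also had. A count of 0 therefore does not show that levels were steady. At an unadjusted p under 0.05 the count was 0 of 32, against 4.3% of all genes. DESeq2 was given only the 9075 genes past the filter, and called none of them a dispersion outlier.

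The genes nearest the threshold were Galc and Gaa. The dispersion of Galc was 5.51 times the trend, with adjusted p = 0.94 in edgeR's quasi-likelihood test. That of Gaa was 5.36 times the trend, also with adjusted p = 0.94 in edgeR's test. Arsa at 2.57 times, Grn at 2.45 times and Man2b1 at 2.04 times the trend came next. At the other end were Hgsnat at 0.111 times, Lamp1 at 0.143 times and Ppt1 at 0.188 times the trend. The median over the 32 genes was 0.972 times the trend, beside 0.949 over all genes tested, and 15 of the 32 lay above the trend, beside 48.3% of all genes. In edgeR's fit without the filter, Gla, Sgsh and Acp5 each had an adjusted p = 0.83. There 0 of the 35 genes and 2.15% of all 21681 genes had an unadjusted p under 0.05.

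The coefficient of variation of CPM over the libraries ran from 6.59% for Hgsnat to 99.3% for Galc in the 32 genes, while counting alone would give 0.313% to 5.86%. Its median was 29.2% over these genes and 38.6% over all genes tested.

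**Figure D3:**
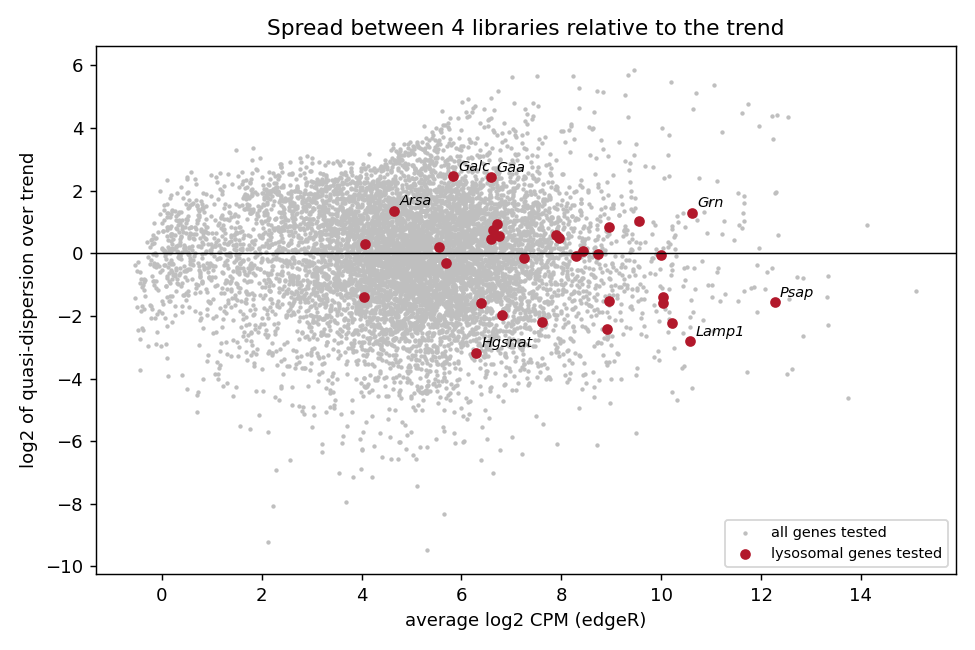
Dispersion between the 4 libraries relative to the trend (log2, vertical) against average log2 CPM from edgeR (horizontal), for all 9075 genes tested in grey and the 32 lysosomal genes tested in red. The red points spread on both sides of the line at 0, from Hgsnat at 0.111 times to Galc at 5.51 times the trend.

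Which library was high differed from gene to gene. Replicate 1 was the highest library for 14 of the 35 genes and replicate 4 for 14, where 25.3% and 40.3% of all genes tested had their highest value in these libraries. Replicate 2 was the highest for 4 and replicate 3 for 3, against 18.9% and 15.6% of all genes. The lowest library was replicate 1 for 4 genes (25.5% of all), replicate 2 for 11 (24.2%), replicate 3 for 10 (19.6%) and replicate 4 for 10 (30.7%). These shares cover only genes past the filter on low counts. Over the 32 of the 35 genes past it, replicates 1 to 4 were the highest library for 13, 4, 1 and 14. They were the lowest for 3, 11, 10 and 8. The counts for replicate 4 were near the shares over all genes tested, so they are no result about the 35 genes.

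Relative to its mean over the libraries, the median gene of the 35 stood at 0.21, -0.10, -0.15 and 0.12 in replicates 1 to 4 on the scale of log2(CPM + 0.5). The same median over all genes tested was 0.05, -0.01, -0.03 and 0.12. With TMM scaling, edgeR's other way of setting library sizes, the medians over the 35 genes were 0.19, -0.05, -0.11 and 0.04.

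Other transcripts moved between the libraries too. The microglial markers summed to 3.29%, 1.90%, 1.87% and 3.28% of counts in replicates 1 to 4. The list of 18 immediate early genes, which cells switch on soon after a stimulus such as dissociation, took 0.550%, 6.11%, 5.28% and 0.578%. The neutrophil markers summed to 1499, 285, 276 and 2403 CPM, and the oligodendrocyte markers to 486, 1789, 1819 and 587 CPM. Their part in the values of the lysosomal genes was not tested. Without the immediate early genes in the total, the share of the 35 genes was 1.76% ± 0.126 (SD, n = 4), against 1.70% with them. Since the early genes took at most 6.11% of counts, leaving them out could move the share only a little. It does not test their part.

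The low values in replicate 4 stood among many such values in that library. Of 6426 genes with a mean of 5 to 50 CPM, the range that holds Gla and Sgsh, 15.9% were at 3 reads or fewer in replicate 4, against 5.17%, 0.436% and 0.607% in replicates 1 to 3. Whether that accounts for Gla and Sgsh was not tested.

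**Figure D4:**
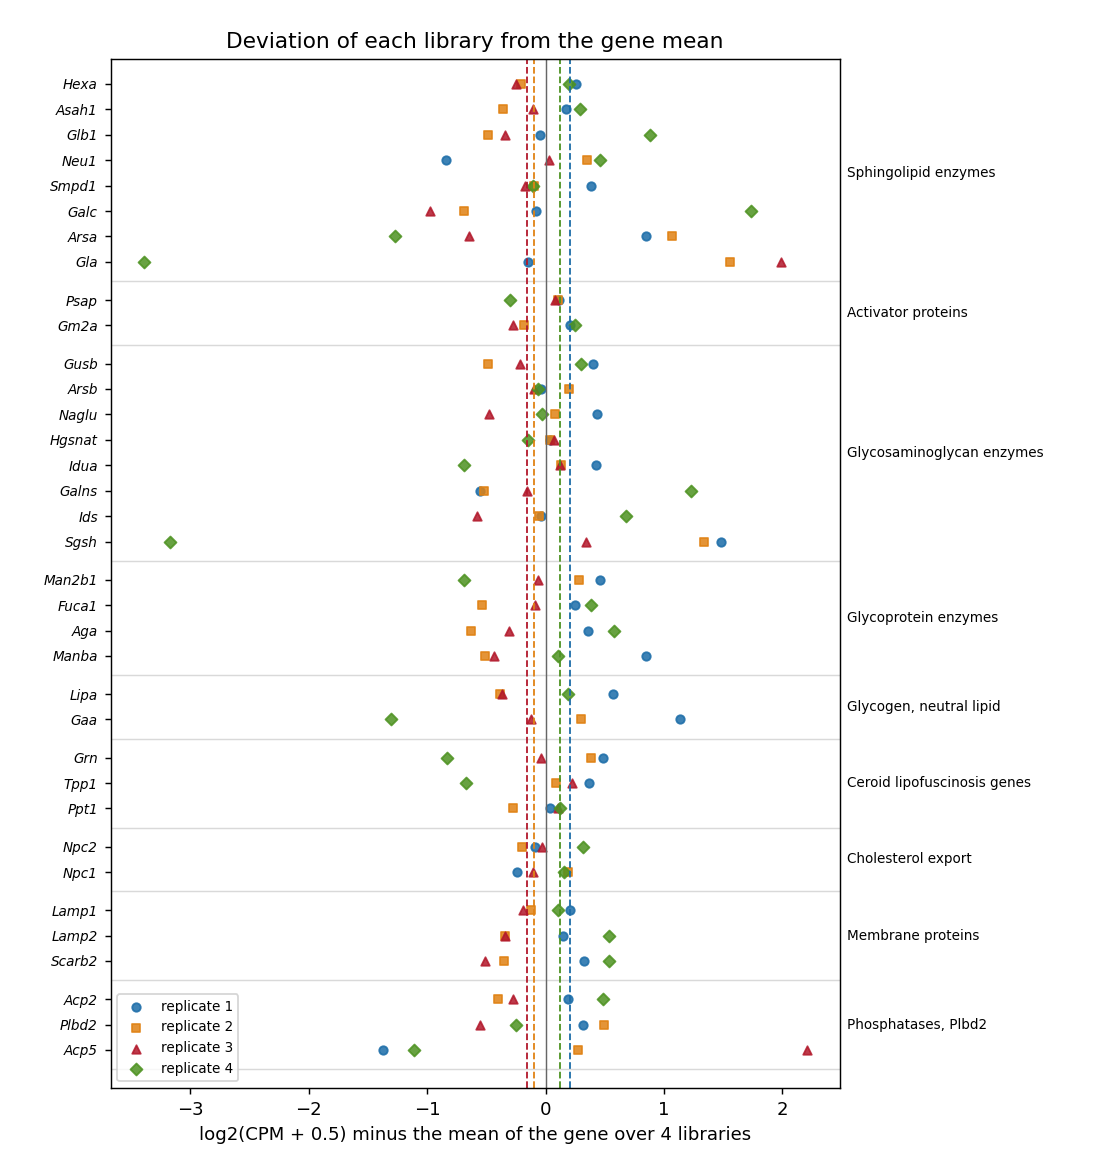
Deviation of each library from the mean of the gene, on the scale of log2(CPM + 0.5), for the 35 genes by role; coloured symbols are the 4 libraries and dashed lines their medians over the 35 genes, at 0.21, -0.10, -0.15 and 0.12. Gla and Sgsh in replicate 4 are the symbols farthest to the left and Acp5 in replicate 3 the one farthest to the right.

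A list of 47 other genes of lysosomal enzymes, enzyme delivery, gene control and membrane proteins gave the setting of these 35. In edgeR's test 44 of them were tested and 0 were called, where the share of all genes called was 0%. At an unadjusted p under 0.05 there were 2 of 44, near the 4.3% of all genes, so the count is no result about the list. Those 2, Sort1 and Nagk, are named only to account for it, after their values were seen. Sort1 encodes sortilin, a sorting receptor that binds prosaposin and progranulin, and gave 59.4, 78.2, 92.8 and 0.491 CPM in replicates 1 to 4. Nagk encodes a kinase of the cytosol that recovers N-acetylglucosamine, and gave 43.9, 28.0, 34.5 and 0.540 CPM. Both were far lower in replicate 4 than in the other libraries.

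Among other enzymes, 6 of 18 were at 100 CPM or more in every library, against 5.28% of all genes with a count. Ctsa, the protective protein that holds Glb1 and Neu1 in their complex, stood at 2011 ± 377 CPM (SD, n = 4), Pla2g15, a lysosomal phospholipase, at 674 ± 161 CPM and Creg1 at 637 ± 152 CPM. Gba2 and Nagk of this list act outside the lysosome.

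Of the 13 genes that deliver hydrolases, 3 were at 100 CPM or more in every library, against 5.28% of all genes with a count. M6pr, the cation-dependent mannose 6-phosphate receptor, gave 493, 441, 468 and 595 CPM in replicates 1 to 4. Igf2r, the other mannose 6-phosphate receptor, is named outside the rule and had no read in replicates 1, 3 and 4 and 0.133 CPM in replicate 2, which is 3 reads. In the annotation of GRCm38 no other gene overlaps its exons. The authors' own annotation was not used here, and reads that meet overlapping features can be left uncounted, so these counts do not show that the transcript was absent or low. Cln8, which helps enzymes leave the endoplasmic reticulum, stood at 169.9 ± 17.9 CPM and Nagpa, which uncovers the mannose 6-phosphate tag, at 148 ± 52.2 CPM (SD, n = 4).

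The sulfatases of the list, Arsa, Arsb, Galns, Ids and Sgsh, all depend on Sumf1, which converts a cysteine of their active site. Sumf1, named here outside the rule, gave 156, 148, 155 and 123 CPM in replicates 1 to 4. Its standard deviation was 15.2 CPM around 145 CPM. Relative to the mean, Sumf1 varied less than Arsa, Galns, Ids and Sgsh did, while Arsb was steady like it. The more variable sulfatases had means of only 9.25 to 24.2 CPM, and Sgsh had 3 reads in replicate 4. Whether their low level accounts for this was not tested.

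Of the transcription factors of lysosomal genes, Tfe3 stood at 125 ± 49.8 CPM, Zkscan3, a repressor, at 89.5 ± 52.8 CPM and Mitf at 28.6 ± 9.54 CPM (SD, n = 4). Tfeb, named outside the rule, gave 16.5, 31.6, 17.7 and 22.8 CPM in replicates 1 to 4. None of the 5 factors reached 100 CPM in every library, where 5.28% of all genes with a count did. That count is near the share over all genes and is no result about the factors. Among other membrane proteins Laptm5 stood at 2736 ± 812 CPM, the macrophage lysosomal protein Cd68 at 1162 ± 294 CPM and Laptm4a at 934 ± 299 CPM.

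Overlapping genes limit a few of these values, because the strand setting of the counting is not given in the sources used here. In the GENCODE annotation of GRCm38, genes on the other strand cover over 10% of the exon length of 5 of the 35 genes. They cover 39.9% of Arsb, 21.6% of Sgsh, 18.8% of Arsa, 12.8% of Hexa and 12.6% of Acp2.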

How the data were processed

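RNA was sequenced from 4 libraries of sorted microglia of 1 group. Per the submitters' processing notes, the authors used STAR 2.7.10a, SAMtools 1.16.1 and HTSeq 0.11.2 with the mouse build GRCm39. Which annotation, strand setting and read filters were used is not given in the sources used here. The deposited files, 1 per library, list unnormalised read counts by gene symbol. HTSeq's 5 last rows, reads without a gene, 20.8% ± 1.28 of each file (SD, n = 4), were left out of totals and tests.

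CPM, ratios and counts of genes were computed with Python 3.11.15, numpy 2.4.6, pandas 2.3.3 and scipy 1.17.1. The variability test used edgeR 4.0.16 in R 4.3.3 (filterByExpr with a minimum count of 10, TMM, Benjamini-Hochberg over all genes), with DESeq2 1.42.0 as alternative. It was tested on simulated counts. Exon lengths came from GENCODE M21. The 35 genes and all lists were chosen with earlier results of these data known. The rule for named genes gave every library's value for the 3 highest and the lowest gene of each role, any gene called and both genes of each pair. It also named the 3 highest genes of each role in the list of other lysosomal genes. The rule also foresaw protein sequences, which were not used here.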

Additional observations from a re-analysis of the deposited data

Results flagged for a closer look

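In 50 sets of 4 values (35 genes, the share of counts and 14 pair ratios), 7 had 1 library that lay apart from the other 3 by more than Dixon's 95% limit on its gap as a share of the range. Chance flags about 1 in 20 such sets, and the sets share genes and libraries. Galc at 141 CPM in replicate 4 lay above 21.3 to 39.8 CPM in the others, and Galns at 34.0 CPM in replicate 4 above 9.56 to 12.8 CPM. Psap at 3848 CPM in replicate 4 lay below 5026 to 5141 CPM, and Hgsnat at 68.5 CPM in replicate 4 below 77.6 to 79.5 CPM. Smpd1 at 105 CPM in replicate 1 lay above 71.2 to 75.1 CPM. The log2 ratio of Naglu to Sgsh was 10.42 in replicate 4, with 3 reads of Sgsh, against 4.16 to 4.64. The log2 ratio of Npc2 to Npc1 was 4.07 in replicate 2, against 4.54 to 4.62. Replicate 4 was the library apart in 5 of the 7. Over all 9075 genes tested, replicate 4 was the highest library for 40.3% and the lowest for 30.7%. The share of all genes that Dixon's limit would flag was not computed. These counts are therefore no result about the 35 genes.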

How the results depend on the processing

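No paired analysis was possible because the labels give 1 group. The count of lysosomal genes called variable was 0 with DESeq2 size factors, without the low-count filter, as DESeq2 dispersion outliers and without any 1 replicate. The count for the 47 other lysosomal genes, tried after the data were seen, was also 0 in each. No gene of any kind was called in these settings, so the counts do not show steady levels. The share of counts was 1.35% with the reads given to no gene in the total, and 1.63% to 1.74% with 1 replicate left out. The number of genes at 100 CPM or more in every library was 18, and 18 to 19 with 1 replicate left out, 25 at 50 CPM and 14 at 200 CPM. No mean pair ratio changed sign without length correction, with the longest transcript, with a pseudocount of 1 or with 1 replicate left out. Without length correction 7 of the 14 ratios moved by over 1.5-fold, and with the longest transcript 2 did. Mean levels of all 35 genes stayed within 1 SD under TMM scaling. Leaving out 1 replicate moved those of Gla, Galc, Galns and Acp5 by over 1.5 times. Leaving out replicate 4 also moved the log2 ratios of Galc to Psap, to -9.94, and of Naglu to Sgsh, to 4.39, by over 1.5-fold, and each replicate did so for Acp2 over Acp5, whose mean is not given. Counting error was at most 5.86% for the 32 genes tested. At 3 reads or fewer, the values of Gla, Sgsh and Acp5 are imprecise, and why they were low there was not tested.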

Other observations

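The 7 genes with CACGTG in the promoter were looked at in replicate 4 after their values had been seen, so no test was made. They stood a median of -1.27 from the gene mean on the scale of log2(CPM + 0.5) in that library, which was the lowest for 4 of the 7, Arsa, Gaa, Gla and Sgsh. The 22 other genes with a promoter in the table stood at a median of 0.20, and replicate 4 was the lowest library for 5 of them. That difference rests largely on Gla and Sgsh, which had 3 reads each in replicate 4 and did not pass the filter on low counts. Over the 5 genes with CACGTG that passed it the median was -0.03 and replicate 4 was the lowest library for 2, and over the 21 without it the median was 0.20 and replicate 4 was the lowest for 5. Over all genes tested, which are those past the same filter, the median was 0.06 for the 839 with CACGTG and 0.10 for the 5767 without it, and replicate 4 was the lowest library for 33.5% and 32.9% of them.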
